A study of Homo sapiens with 4 samples.

Results

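The laminin and integrin genes are 38 protein-coding genes, 12 laminin chains and 26 integrin chains, chosen by gene symbol from 60617 gene entries. They were measured by RNA-seq in SKNMC, an established human Ewing sarcoma cell line. Cells were kept for 24 h in 1 µM CBL0137 (n = 2 libraries) or in the DMSO vehicle (n = 2 libraries). CBL0137 belongs to the curaxins, compounds that insert into DNA and so withdraw FACT, a histone chaperone, from its usual work. Both groups are 1 cell line with the same culture medium and serum, and they differ by label only in the agent added. Whether replicate libraries stem from separate cultures is not stated, so each p-value rests on a spread between libraries that may be purely technical.

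Laminins are large secreted proteins of basement membranes. Each is a trimer of an alpha, a beta and a gamma chain, and the end of the alpha chain carries the main sites for cell receptors. Integrins are the chief of these receptors, and each is a pair of an alpha and a beta chain that spans the cell membrane. The alpha chain largely sets the ligand, which may be laminin, collagen, or proteins such as fibronectin that hold an RGD motif, and ITGB1 is the beta chain with the most partners.

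Reads counted in genes numbered 20767817 and 21061892 in CBL0137 libraries and 20086664 and 19625517 in DMSO libraries. Levels are given as CPM (the count scaled to a common library size with TMM factors). Chains are compared with each other as FPKM, the authors' value per length, or as CPM per kilobase of annotated exon. Sums of CPM over marker genes are not scaled for gene length. A gene was called when its adjusted p (edgeR quasi-likelihood test, Benjamini-Hochberg over all genes tested) was under 0.05 and its fold above 1.5. The Ewing sarcoma markers, among them CD99, NKX2-2 and FLI1, were present in every library. Of these markers 10 of 10 were tested and 5 called lower, beside 15.1% called lower over all genes tested. The summed level of these markers was 1850 and 1971 CPM in CBL0137 libraries and 3111 and 3148 CPM in DMSO libraries.

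Of the 38 genes, 29 passed the low-count filter, and of these 11 were called higher, 6 lower and 12 not called with CBL0137. Over all 17374 genes tested, 33.4% were called, 18.2% higher and 15.1% lower. The median log2 fold change was 0.14 for the 29 laminin and integrin genes and 0.01 for all genes tested. Scaling by library size alone moved the median of all genes to 0.17 and left 11 laminin and integrin genes called higher and 2 lower (4138 and 1877 over all genes, against 3166 and 2632 with TMM factors). At an average log2 CPM of at least 3 there were 16 laminin and integrin genes, 7 called higher and 3 lower, where 27.8% of all such genes were called, 11.5% higher and 16.3% lower. With limma on log2(FPKM + 1), 6 laminin and integrin genes were called higher and 2 lower, where 5.88% of 38635 genes were called, 3.14% higher and 2.74% lower. ITGA9 passed the filter through its CBL0137 libraries only, and LAMA3 through its DMSO libraries only, so both had to differ to be tested at all.

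**Figure D1:**
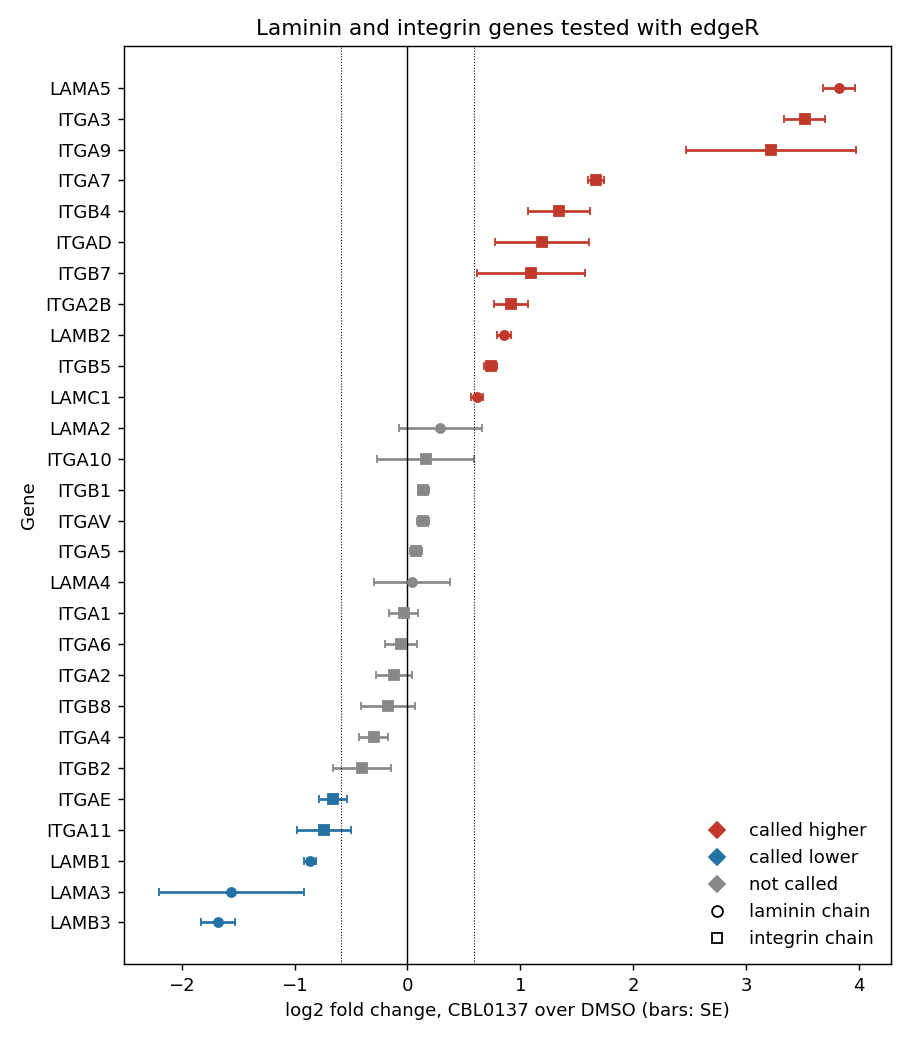
Log2 fold change, CBL0137 over DMSO, of 28 laminin and integrin genes tested (edgeR, bars are SE, n = 2 per group). Dotted lines mark a fold of 1.5 in either direction, red and blue genes were called, and LAMA5 (3.82) and ITGA3 (3.51) lie farthest to the right and LAMB3 (-1.68) farthest to the left.

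The laminin alpha chains were led by LAMA5, which rose about 14.1-fold with CBL0137. LAMA5 encodes the alpha chain of the laminins found in most adult basement membranes. Its level was 36.6 and 32.7 CPM in CBL0137 libraries, against 2.01 and 2.90 CPM in DMSO libraries. Both CBL0137 libraries stood far above both DMSO libraries. The log2 fold change was 3.82 (SE 0.14, adjusted p = 5.3e-25) and lay between 3.56 and 4.09 when any single library was left out. LAMA5 lies on the minus strand of GRCh37 chromosome 20, from 60883011 to 60942368, and shares 2.54% of its exonic bases with exons of other genes. ADRM1 and LAMA5-AS1 overlap it on the opposite strand. With limma on log2(FPKM + 0.1) the difference was 2.97 and missed the threshold (adjusted p = 0.0548), whereas with log2(FPKM + 1) it was 1.59 and called.

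The other alpha chains were low in both groups. LAMA4, an alpha chain of blood vessel and muscle laminins, was at 1.46 and 1.94 CPM in CBL0137 libraries and at 1.64 and 1.67 CPM in DMSO libraries. LAMA2, the alpha chain of muscle and peripheral nerve laminin, was at 1.27 and 1.99 CPM in CBL0137 libraries and at 1.16 and 1.50 CPM in DMSO libraries. For both genes the groups overlapped, and neither was called. LAMA1, a laminin chain of the early embryo, had from 2 to 12 reads per library and was not tested.

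LAMB2 and LAMC1 encode a beta and a gamma chain that can join the LAMA5 chain in 1 trimer, and both rose. LAMB2 was at 117 and 109 CPM in CBL0137 libraries and at 60.8 and 64.4 CPM in DMSO libraries (log2 fold change 0.85, SE 0.06, adjusted p = 1.28e-15). LAMC1, the gamma chain of most laminins, was at 299 and 303 CPM in CBL0137 libraries and at 193 and 200.2 CPM in DMSO libraries (log2 fold change 0.61, SE 0.05, adjusted p = 1.5e-13). The groups did not overlap for either gene, as for 79.9% of all genes tested. LAMC1 lay close to the fold limit and was not called without DMSO replicate 1 (0.57). LAMB2 was not called once the trend of fold change with GC content and exon length was removed (0.52). LAMB2 lies on chromosome 3 (49158547 to 49170551, minus strand) and LAMC1 on chromosome 1 (182992555 to 183114727, plus strand), and neither shares exonic bases with another annotated gene.

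LAMB1, the beta chain that is the alternative to LAMB2 in such trimers, fell. It was at 393 and 386 CPM in CBL0137 libraries, against 704 and 710.5 CPM in DMSO libraries, and the groups were far apart. On the FPKM scale it was the most abundant laminin chain in every library, at 58.7 and 56.3 FPKM in CBL0137 libraries and at 97.7 and 97.9 FPKM in DMSO libraries. That order depends on the measure used. By CPM per kilobase of all annotated exon bases, LAMC1 averaged 35.6 and LAMB1 21.0 with CBL0137, and LAMC1 23.3 and LAMB1 38.0 with DMSO. Its log2 fold change was -0.86 (SE 0.05, adjusted p = 3.72e-18), a level 1.82-fold lower with CBL0137, and without any single library it lay between -0.88 and -0.85. The FPKM ratio of LAMB1 to LAMB2 was 3.41 and 3.44 in CBL0137 libraries and 11.6 and 11.1 in DMSO libraries. LAMB1 lies on the minus strand of chromosome 7 (107564244 to 107643658) and shares 2.60% of its exonic bases with genes on the opposite strand.

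The sequences at the starts of these 4 genes are shown because the genes encode chains of the same trimers and did not move alike. Each is the 250 bases before the RefSeq start (table of GRCh38.p14), given 5′ to 3′ on the gene's strand, and each was found once, letter for letter, at its gene in GRCh37: LAMA5 at chr20:60942369-60942618 (minus strand), LAMB2 at chr3:49170484-49170733 (minus strand), LAMC1 at chr1:182992305-182992554 (plus strand) and LAMB1 at chr7:107643607-107643856 (minus strand). The last 68 bases of the LAMB2 window and the last 52 of the LAMB1 window lie inside the gene as GENCODE annotates it. Capitals mark the GC box GGGCGG or its reverse complement CCGCCC.
LAMA5: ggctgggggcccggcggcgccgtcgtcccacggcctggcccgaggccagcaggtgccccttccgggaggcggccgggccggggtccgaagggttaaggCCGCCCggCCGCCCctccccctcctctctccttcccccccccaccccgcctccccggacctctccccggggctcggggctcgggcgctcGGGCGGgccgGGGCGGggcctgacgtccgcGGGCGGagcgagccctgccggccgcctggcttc
LAMB2: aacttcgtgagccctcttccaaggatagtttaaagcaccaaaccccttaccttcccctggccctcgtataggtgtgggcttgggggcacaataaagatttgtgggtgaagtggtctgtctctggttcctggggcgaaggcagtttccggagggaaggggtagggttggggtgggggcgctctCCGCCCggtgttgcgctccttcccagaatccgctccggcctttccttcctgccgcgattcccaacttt
LAMC1: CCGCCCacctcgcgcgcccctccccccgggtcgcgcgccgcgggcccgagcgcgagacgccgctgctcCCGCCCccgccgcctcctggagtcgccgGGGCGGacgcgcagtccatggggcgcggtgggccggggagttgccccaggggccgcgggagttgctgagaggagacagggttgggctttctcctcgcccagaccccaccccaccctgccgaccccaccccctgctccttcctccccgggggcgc
LAMB1: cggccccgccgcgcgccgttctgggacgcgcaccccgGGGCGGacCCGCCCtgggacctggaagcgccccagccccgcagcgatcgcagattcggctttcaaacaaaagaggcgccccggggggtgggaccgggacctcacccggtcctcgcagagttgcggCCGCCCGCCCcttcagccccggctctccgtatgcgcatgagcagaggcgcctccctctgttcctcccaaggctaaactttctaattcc
Counting both strands and overlapping matches, the GC box occurred 5 times for LAMA5, 1 time for LAMB2, 3 times for LAMC1 and 4 times for LAMB1, and 42.6% of 35095 windows of this length held at least 1. The share of G and C was 82.8% for LAMA5, 58.4% for LAMB2, 79.6% for LAMC1 and 70.4% for LAMB1. Over all windows the median was 58.0% and the 90th percentile 75.2%. The repeat GGAAGGAA or its reverse complement was in the LAMB2 window and in 3.07% of all windows, and TATAAA or its reverse complement was in none of the 4 and in 10.7% of all. Among these 4 genes, LAMB1, which fell, and LAMA5 and LAMC1, which rose, had several GC boxes, while LAMB2 had a single one. LAMB3, which fell and whose windows are not shown, had 1 GC box in each window. Whether GC boxes bear on the direction of change was not tested.

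LAMA3 and LAMB3 encode chains of laminins in the basement membranes of skin and other epithelia, and both were called lower. LAMB3 was at 4.82 and 4.25 CPM in CBL0137 libraries and at 15.3 and 13.8 CPM in DMSO libraries (log2 fold change -1.68, SE 0.15, adjusted p = 1.06e-12). LAMB3 was called lower whichever library was left out, and with DESeq2, but not with log2(FPKM + 1) over all genes (-0.66, adjusted p = 0.145). LAMA3 had 4 and 5 reads in CBL0137 libraries and 10 and 13 reads in DMSO libraries (log2 fold change -1.56, SE 0.64, adjusted p = 0.0325). The LAMA3 groups did not overlap, but the call was lost whichever library was left out, and with DESeq2 (adjusted p = 0.272). LAMB4 and LAMC3 had at most 7 reads in a library and were not tested.

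**Figure D2:**
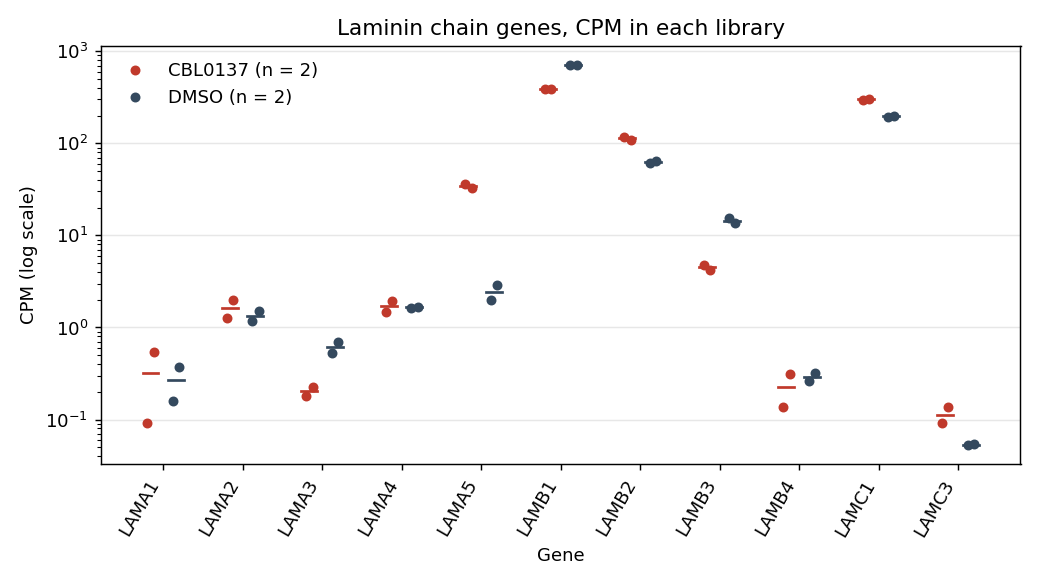
CPM (log scale) of 11 laminin chain genes in each library, with points for libraries and bars for means, CBL0137 (red) and DMSO (blue), n = 2 each. LAMA5 stands at 36.6 and 32.7 CPM with CBL0137, against 2.01 and 2.90 CPM with DMSO, and LAMB1 and LAMB3 lie lower with CBL0137.

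On the FPKM scale the alpha chains together were scarce beside the beta and gamma chains in every library. Alpha chains summed to 3.93 and 2.69 FPKM in CBL0137 libraries and to 0.831 and 0.867 FPKM in DMSO libraries. Beta chains summed to 77.2 and 73.4 FPKM in CBL0137 libraries and to 108 and 109 FPKM in DMSO libraries, and gamma chains to 27.0 and 27.5 FPKM in CBL0137 libraries and to 16.2 and 17.0 FPKM in DMSO libraries. LAMA5 made up 87.4% and 90.4% of the alpha chain sum in CBL0137 libraries and 20.2% and 51.2% in DMSO libraries. With DMSO the FPKM ranges of LAMA5, LAMA4 and LAMA2 overlapped, so FPKM does not settle their order there. By CPM per kilobase of all annotated exon bases, the DMSO libraries had LAMA5 at 0.141 and 0.203 and LAMA4 at 0.137 and 0.139. LAMA2 was at 0.044 and 0.057 by that measure, so the ranges did not overlap, though LAMA5 and LAMA4 lay close. LAMB2 made up 22.3% of the beta chain sum in each CBL0137 library, against 7.78% and 8.11% in DMSO libraries. With CPM per kilobase of all annotated exon bases in place of FPKM, the mean share of LAMB2 was 42.9% with CBL0137 and 18.1% with DMSO. The gamma chain sum was almost wholly LAMC1, at 99.9% with CBL0137 and 99.6% with DMSO on average.

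Among the laminin-binding integrin alpha chains, ITGA3 and ITGA7 rose and ITGA6 was not called. ITGA3, whose dimer with ITGB1 is a receptor for laminins of the LAMA5 chain, was at 18.9 and 17.8 CPM in CBL0137 libraries and at 1.32 and 1.88 CPM in DMSO libraries. Both CBL0137 libraries lay well above both DMSO libraries. The log2 fold change of 3.51 (SE 0.18, adjusted p = 1.82e-20) is a level 11.4-fold higher, and the call held in each setting tried. ITGA3 lies on the plus strand of chromosome 17 (48133332 to 48167845), with no other annotated gene over it.

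ITGA7, a laminin receptor chain best known from skeletal muscle, was at 91.3 and 85.5 CPM in CBL0137 libraries and at 28.7 and 26.9 CPM in DMSO libraries. The groups did not overlap, and the log2 fold change was 1.67 (SE 0.07, adjusted p = 6.07e-23), a level 3.18-fold higher with CBL0137 that was called in each setting tried. ITGA7 lies on the minus strand of chromosome 12 (56078352 to 56110188) and shares 1.82% of its exonic bases with genes on the opposite strand. ITGA6, which can pair with ITGB1 or ITGB4, was at 10.0 and 10.1 CPM in CBL0137 libraries and at 9.73 and 11.2 CPM in DMSO libraries, with overlapping groups (log2 fold change -0.06, SE 0.14, adjusted p = 0.739).

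Of the 4 collagen-binding alpha chains, ITGA11 was called lower and 3 were not called. ITGA11, a receptor chain for fibrillar collagen, was at 2.14 and 3.43 CPM in CBL0137 libraries and at 4.60 and 4.73 CPM in DMSO libraries (log2 fold change -0.74, SE 0.24, adjusted p = 0.00647). The call rested on CBL0137 replicate 1, without which the value was -0.44 (adjusted p = 0.182), and DESeq2 did not make it (adjusted p = 0.106). ITGA1, whose dimer binds collagen of basement membranes, was at 11.6 and 13.3 CPM in CBL0137 libraries and at 11.7 and 13.8 CPM in DMSO libraries. ITGA2 was at 7.24 and 7.41 CPM in CBL0137 libraries and at 7.35 and 8.60 CPM in DMSO libraries, and ITGA10 stayed under 1.5 CPM in every library. For ITGA1, ITGA2 and ITGA10 the groups overlapped.

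The RGD-binding chains ITGA5 and ITGAV were the most abundant integrin alpha chains by FPKM, and neither reached the fold limit. ITGA5, the fibronectin receptor chain, was at 176 and 181 CPM in CBL0137 libraries and at 166 and 172 CPM in DMSO libraries (log2 fold change 0.08, SE 0.05, adjusted p = 0.203). ITGAV, which pairs with several beta chains, was at 157 CPM in each CBL0137 library and at 139 and 147 CPM in DMSO libraries (0.14, SE 0.05, adjusted p = 0.0263). The CBL0137 libraries were slightly higher for both genes with no overlap, and the sign of ITGA5 turned once the GC and length trend was removed (-0.13). ITGA2B, the platelet fibrinogen receptor chain, was called higher, at 12.0 and 11.9 CPM in CBL0137 libraries and at 5.81 and 6.82 CPM in DMSO libraries (0.92, SE 0.15, adjusted p = 1.02e-06). Its call was lost with FPKM and when the GC and length trend was removed (0.55). Of 6 megakaryocyte and platelet markers, PF4, GP9, GP1BB and PPBP had 0 reads in every library. ITGA8, an RGD-binding chain of kidney and mesenchyme, also had 0 reads in every library, which allows up to 0.161 CPM per library.

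ITGA4 and ITGA9 form a subfamily that binds VCAM1, among other ligands. ITGA4 was at 10.3 and 9.57 CPM in CBL0137 libraries and at 12.0 and 12.5 CPM in DMSO libraries, under the fold limit (log2 fold change -0.30, SE 0.13, adjusted p = 0.0446), and 26.4% of its exonic bases are shared with CERKL on the opposite strand. ITGA9 was called higher at a low level, with 15 and 20 reads in CBL0137 libraries and 1 and 2 reads in DMSO libraries. Scaled for the effective library sizes, the ratio of summed reads was 9.93 (95% exact interval 3.13 to 50.4, covering counting error only), and the edgeR adjusted p was 0.000293. Because ITGA9 passed the low-count filter through its CBL0137 libraries only, neither value is independent evidence of the difference. With limma on log2(FPKM + 1) the gene was not called (0.10, adjusted p = 0.061), and it shares 9.23% of its exonic bases with genes on the opposite strand.

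Of the 5 alpha chains of leukocytes, all but ITGAE were low. ITGAE, which binds E-cadherin, was called lower, at 10.3 and 9.17 CPM in CBL0137 libraries and at 15.3 and 15.4 CPM in DMSO libraries (log2 fold change -0.66, SE 0.12, adjusted p = 1.59e-05). The groups did not overlap, but the call was lost without CBL0137 replicate 2 (-0.58) and with library size alone (-0.50). ITGAE shares 7.65% of its exonic bases with genes on the opposite strand, and HASPIN is among the genes that overlap it there. ITGAD was called higher although its groups overlapped, with 26 and 68 reads in CBL0137 libraries and 25 and 10 reads in DMSO libraries. Without CBL0137 replicate 2 its log2 fold change was 0.34 (adjusted p = 0.647), against 1.19 (adjusted p = 0.0126) with all libraries, and without DMSO replicate 2 it was 0.67 (adjusted p = 0.21). ITGAL, ITGAM and ITGAX had at most 9 reads in any library and were not tested.

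**Figure D3:**
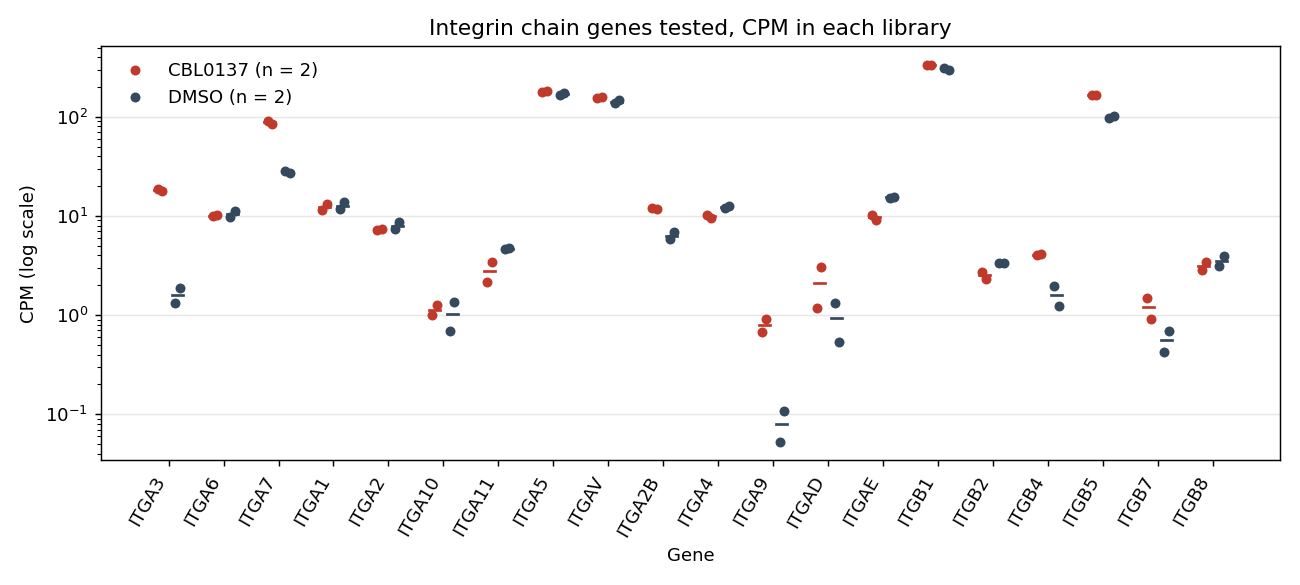
CPM (log scale) of the 20 integrin chain genes tested, in each library, with points for libraries and bars for means, CBL0137 (red) and DMSO (blue), n = 2 each. ITGA3 (18.9 and 17.8 CPM with CBL0137, 1.32 and 1.88 CPM with DMSO) and ITGA7 separate widely, whereas the 4 points of ITGB1, of ITGA5 and of ITGAV lie close together.

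Among the beta chains, 3 of 6 tested were called higher and 0 lower, beside 18.2% higher and 15.1% lower over all genes tested. ITGB1, the most abundant integrin chain by FPKM, was at 334 and 335 CPM in CBL0137 libraries and at 308 and 298 CPM in DMSO libraries (log2 fold change 0.14, SE 0.05, adjusted p = 0.0167). The CBL0137 libraries were higher without overlap, by less than the fold limit. ITGB1 is the partner chain of ITGA3 and ITGA7, and its level was 1.10-fold higher.

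ITGB5, an ITGAV partner that binds vitronectin, rose 1.67-fold. It was at 165 and 166 CPM in CBL0137 libraries and at 96.5 and 103 CPM in DMSO libraries (log2 fold change 0.74, SE 0.06, adjusted p = 4.76e-15). The groups did not overlap. ITGB5 lies on chromosome 3 (124480795 to 124620265, minus strand).

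ITGB4, the beta chain of hemidesmosomes, was at 4.01 and 4.11 CPM in CBL0137 libraries and at 1.96 and 1.24 CPM in DMSO libraries (log2 fold change 1.34, SE 0.27, adjusted p = 4.93e-05). The groups were apart, and with log2(FPKM + 1) ITGB4 was not called (0.28, adjusted p = 0.13). ITGB7, a lymphocyte homing receptor chain, was at 1.50 and 0.903 CPM in CBL0137 libraries and at 0.423 and 0.698 CPM in DMSO libraries (1.09, SE 0.48, adjusted p = 0.0441). That call was lost without CBL0137 replicate 1 (0.68), DMSO replicate 1 (0.76) or DMSO replicate 2 (1.48, adjusted p = 0.0553), and 42.3% of the exonic bases of ITGB7 are shared with ZNF740 on the opposite strand. ITGB2, the leukocyte beta chain, and ITGB8, which activates latent TGF-beta with ITGAV, lay between 2.30 and 3.98 CPM in every library and were not called. Once the GC and length trend was removed, ITGB2 was called lower (-0.80, adjusted p = 0.0067), against -0.40 (adjusted p = 0.169) as first fitted. ITGB3 had at most 8 reads in a library, and ITGB6 had 0 reads in every library.

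On the FPKM scale ITGA5 and ITGAV held first and second place among the alpha chains in both groups, and ITGA7 moved close to ITGAV with CBL0137. ITGA7 was at 16.6 and 16.8 FPKM in CBL0137 libraries and at 4.68 and 3.50 FPKM in DMSO libraries. ITGAV was at 17.1 and 17.5 FPKM in CBL0137 libraries and at 14.2 and 14.8 FPKM in DMSO libraries, so with CBL0137 ITGAV still stood just above ITGA7 in both libraries. ITGA5 made up 38.4% and 38.9% of the alpha chain sum in CBL0137 libraries and 43.1% and 44.6% in DMSO libraries. ITGAE came next after ITGAV with DMSO, at 19.81% and 18.81% of the sum, against 10.45% and 9.035% in CBL0137 libraries. By CPM per kilobase of all annotated exon bases, the mean share of ITGAE was 5.51% with DMSO and 2.80% with CBL0137. With CPM per kilobase of all annotated exon bases in place of FPKM, ITGA7 exceeded ITGAV with CBL0137 (mean shares 18.5% and 15.4%). ITGB1 made up 80.2% and 78.0% of the beta chain sum in CBL0137 libraries and 86.2% and 87.8% in DMSO libraries, and ITGB5 most of the rest. By CPM per kilobase, ITGB5 exceeded ITGB1 with CBL0137 (mean shares 51.0% and 46.0%). The order of ITGB1 and ITGB5 thus depends on the measure used, while the direction of these 2 shares between groups does not.

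**Figure D4:**
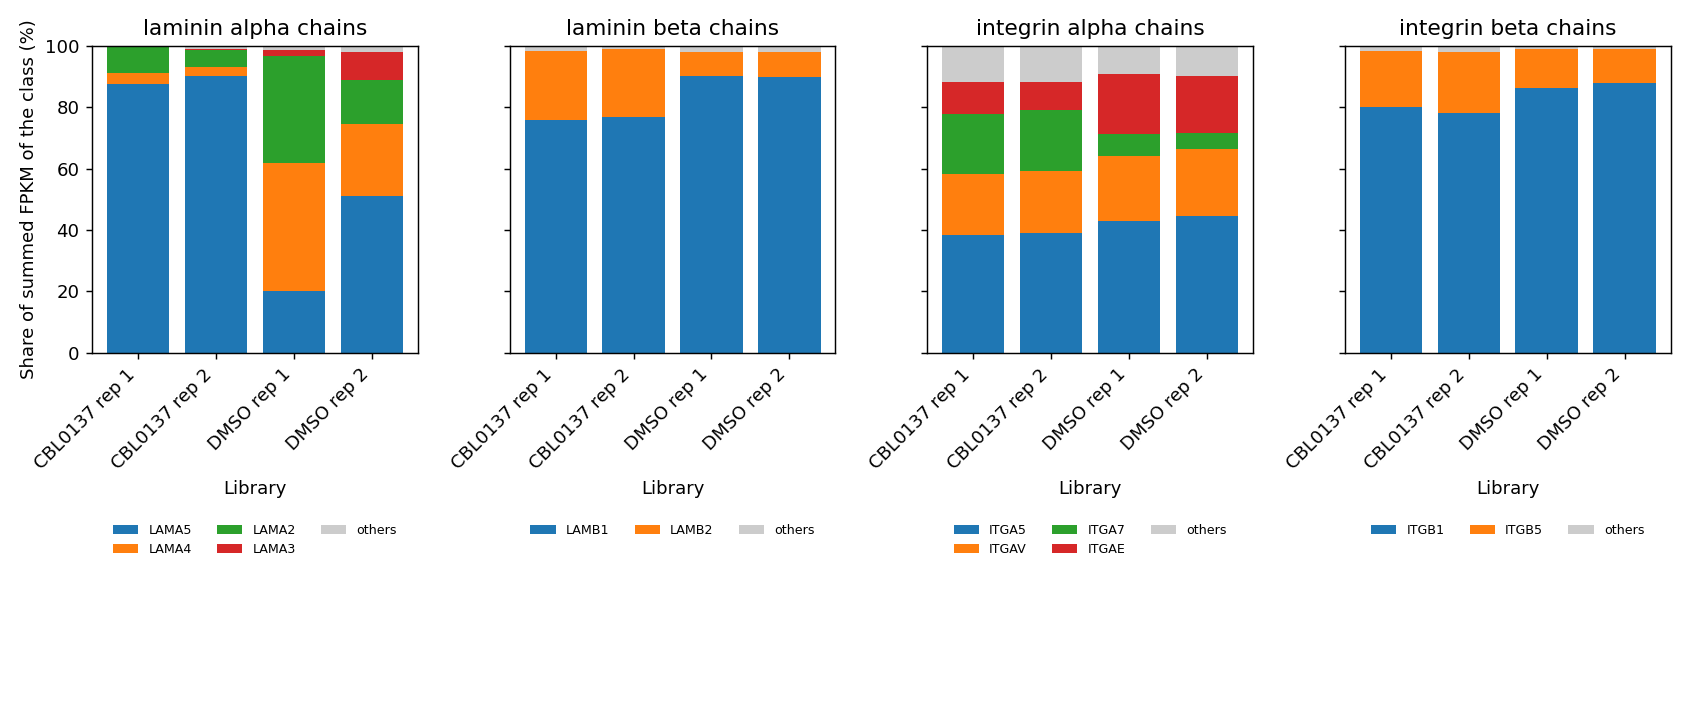
Share of each chain in the summed FPKM of its class (percent) in each of the 4 libraries. LAMA5 takes 87.4% and 90.4% of the laminin alpha chains with CBL0137, against 20.2% and 51.2% with DMSO, and LAMB2 and ITGB5 take larger shares of their classes with CBL0137.

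The genes around these chains were read from lists of partner genes, each set beside the 18.2% called higher and 15.1% called lower over all genes tested. Of the basement membrane partners and other laminin receptors, 9 of 20 tested were called higher and 3 lower (median log2 fold change 0.45). Highest were the matrix proteins of embryonic basement membranes FREM2 (3.74) and FRAS1 (2.75) and the laminin-like netrin NTN4 (2.01), and lowest were the ribosomal protein and laminin receptor RPSA (-0.83), FREM1 (-0.76) and the sarcoglycan SGCB (-0.65). Of the other integrin ligands, 9 of 24 were called higher and 6 lower (median 0.20). The thrombospondin THBS1 (2.70) and the collagen COL1A1 (1.89) rose, ICAM1 had 26 and 40 reads in CBL0137 libraries against 0 and 1 in DMSO libraries, and the tenascin TNC (-2.30), VCAM1 (-2.03) and EDIL3 (-1.76) fell. VCAM1 is a ligand of ITGA4 dimers and EDIL3 of ITGAV dimers. NTN4, COL4A3 and ICAM1 were tested through their CBL0137 libraries only, so to be tested at all they had to be higher there.

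Of the genes of the adhesion complex inside the cell, 7 of 45 tested were called higher and 6 lower (median log2 fold change 0.13), shares near those over all genes. The kindlins, which activate integrins, were represented among the lowest by FERMT3 (-1.40) and FERMT1 (-1.34), beside the LIM protein CSRP1 (-1.55). The parvin PARVG (1.06), vinculin VCL (0.93) and LASP1 (0.87) were the highest called. Of lateral partners and hemidesmosome genes, 3 of 14 were higher and 3 lower, again near the shares over all genes, led by the tetraspanin CD9 (1.74), the galectin LGALS1 (1.17) and CD82 (0.59) among the higher and by SLC3A2 (-1.35), PLAUR (-0.98) and EMP2 (-0.81) among the lower. Of 19 genes of integrin trafficking tested, 0 were called higher and 2 lower, HAX1 (-1.27) and the clathrin adaptor DAB2 (-1.02).

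Markers of other cell types that carry these chains were followed in the same libraries. Their calls stand beside the 18.2% called higher and 15.1% called lower over all genes tested. Of 13 epithelial markers 8 were tested, with 6 called higher (EPCAM, KRT8, KRT18, KRT19, CLDN4 and GRHL2) and 1 lower (ESRP1), and their summed level was 155.5 and 166.5 CPM in CBL0137 libraries and 192.6 and 174.7 CPM in DMSO libraries. GRHL2 and KRT19 passed the low-count filter through their CBL0137 libraries only. The keratin KRT18 made up most of the sum with CBL0137, at 99.3 and 97.3 CPM in CBL0137 libraries and at 45.8 and 46.6 CPM in DMSO libraries. ESRP1, an epithelial splicing factor, made up most of it with DMSO, at 17.3 and 21.0 CPM in CBL0137 libraries and at 129.2 and 107.9 CPM in DMSO libraries, whereas the epithelial transcription factor GRHL2 was at 11.7 and 15.3 CPM in CBL0137 libraries and at 0.106 and 0.161 CPM in DMSO libraries. CDH1 and KRT5 had 0 reads in both DMSO libraries and no epithelial marker was at 0 in all 4. Of 12 leukocyte markers 5 were tested and 1 was called higher and 0 lower, with MS4A1 and TYROBP at 0 in every library and a sum of 162.9 and 181.6 CPM in CBL0137 libraries and of 219.5 and 214.5 CPM in DMSO libraries, most of it PTPRC (106.7 and 123.6 CPM in CBL0137 libraries, 162.3 and 161.9 CPM in DMSO libraries). Of 9 fibroblast and mesenchymal markers 2 were higher and 2 lower (1643 and 1637 CPM in CBL0137 libraries, 1397 and 1386 CPM in DMSO libraries). Of 9 endothelial markers 4 were tested, with 1 higher and 1 lower (50.3 and 53.3 CPM in CBL0137 libraries, 73.3 and 65.7 CPM in DMSO libraries). The 6 megakaryocyte and platelet markers summed to 0.956 and 0.948 CPM in CBL0137 libraries and to 0.582 and 0.484 CPM in DMSO libraries. The part of other cell types in the levels of LAMA5, LAMA3, LAMB3, ITGB4, ITGA2B or the leukocyte chains was not tested. In bulk RNA, fewer cells with a transcript and less of it per cell cannot be told apart.

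**Figure D5:**
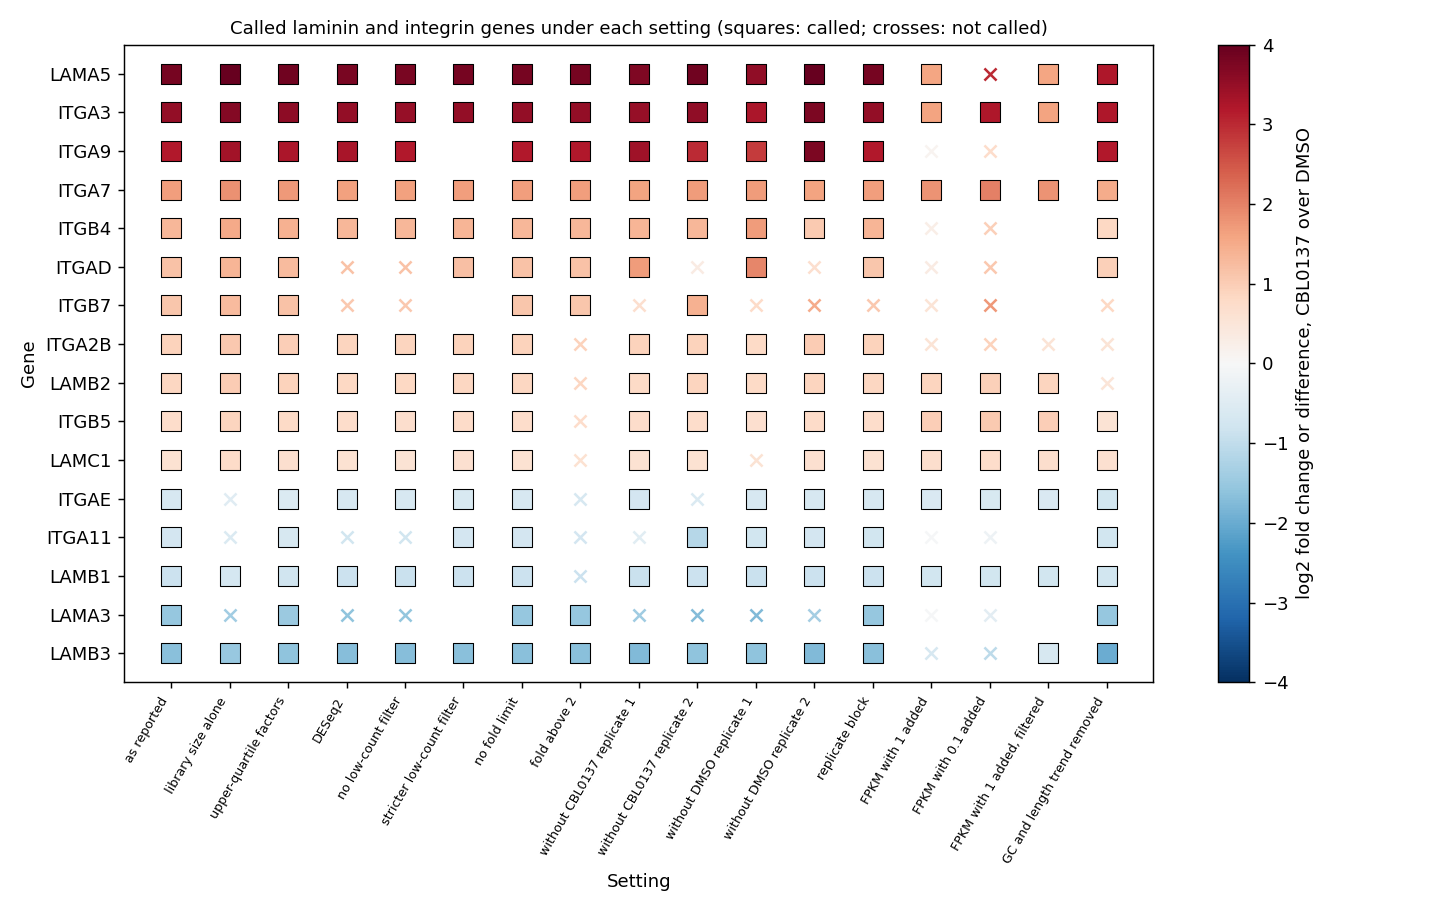
Laminin and integrin genes that were called (16 rows) under each setting (columns), coloured by log2 fold change or, for FPKM, by the difference in log2(FPKM + 1) or log2(FPKM + 0.1), CBL0137 over DMSO; squares were called, crosses were not, and gaps were not tested. ITGA3 and ITGA7 were called under every setting in which they are shown, and LAMA3, ITGB7 and ITGA11 lost their calls most often.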

How the data were processed

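RNA was measured in 2 libraries of SKNMC cells with CBL0137 and 2 with DMSO, grouped by their titles. The deposited table holds raw counts per gene and FPKM. Per the series' design text, HISAT2 placed the authors' Trim Galore output on hg19 and HTSeq 0.11.1 made the deposited counts. Per the same text, the deposited FPKM take gene length and depth into account. The FPKM tool, the annotation release and the strand setting were not given in the sources used here. In the submitters' processing notes mm10 is also named, without a role. Because the strand setting is unknown, reads of overlapping genes on opposite strands cannot be told apart.

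Positions, exons and overlaps are those of GENCODE release 44 on GRCh37 (hg19). The 6 entries that name no gene stayed out. Reads in no gene were 10.3% and 10.2% of counted reads in CBL0137 libraries and 8.53% and 8.82% in DMSO libraries, and ambiguous reads 8.75% and 8.78% in CBL0137 libraries and 9.34% and 9.27% in DMSO libraries. The deposited FPKM are not a rescaling of the counts: 5103 genes had 0 counts in all libraries and FPKM above 0.

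Counts were tested with edgeR 4.0.16 in R 4.3.3 (quasi-likelihood F test, TMM, filterByExpr), with the series' limits on fold (1.5) and false discovery rate (0.05). SE is the absolute log2 fold change over the square root of F. The fit was tested on independent libraries simulated from its own dispersions. Of genes changed 1.5-fold, 2-fold and 4-fold there, 77.6%, 83.6% and 100% had an adjusted p under 0.05. The limit on fold was not applied to these shares. The changed genes were drawn above a low limit on mean CPM, so the shares do not cover genes with the fewest reads, such as LAMA3 and ITGA9. A gene that was not called may thus still have changed. All 4 libraries were kept. Replicates differed by more than sampling noise (chi-square per degree of freedom 2.68 for CBL0137 and 2.95 for DMSO), which does not tell whether they were separate cultures. Shares and ratios carry no p, because 2 against 2 libraries allow no exact permutation p (two-sided) under 0.333. Intervals and floors (3 counts) cover counting error only. Alternatives used DESeq2 1.42.0, limma 3.58.1 on FPKM, other scalings, filters and thresholds, left-out libraries, a replicate block and removal of the GC and length trend.

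The members and gene lists were chosen with earlier results of these data known. The members are described by role, except 1 that enters the counts and is not reported here by name; per-library values are given for called members and for uncalled ones at an average log2 CPM of at least 3, others by range or example. Of each partner list, up to 3 called genes with the highest and up to 3 with the lowest log2 fold change are named. Upstream sequences matched 26 of the 38 genes, and the 4 shown were chosen after values were seen.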

Additional observations from a re-analysis of the deposited data

How the results depend on the processing

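The laminin and integrin genes called higher and lower numbered 11 and 6. The lower count was 2 with library size alone, 3 with DESeq2, 3 with no low-count filter and 3 to 4 without a single library (the higher count 9 to 10). A fold above 2 gave 7 higher and 3 lower, FPKM with 1 added 6 and 2, FPKM with 0.1 added 5 and 2, and FPKM of at least 1 in 2 libraries 6 and 3. Removing the GC and length trend gave 8 higher and 7 lower. Over all genes, 3166 higher and 2632 lower became 1988 and 1218 with a fold above 2, 5347 and 5375 without a fold limit, 1215 and 1057 with FPKM and 1 added, 1725 and 1295 with 0.1 added, and 1918 and 1518 with the FPKM filter; library size alone gave 4138 and 1877. Of the 17 calls, 12 stood with DESeq2, 12 with no filter, 13 with library size alone and 13 without each single library in turn; the cause of the losses was not tested. The replicate numbers are not said to pair samples (correlation of replicate differences between groups 0.02). With the replicate block 10 were higher and 5 lower, and ITGB7 (adjusted p = 0.0543) was among those not called.

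Signs turned only for genes that were not called. With library size alone ITGA1 was at 0.12, ITGA2 at 0.037 and ITGA6 at 0.10, and with upper-quartile factors ITGA1 at 0.034 and ITGA6 at 0.011. With FPKM and 1 added ITGA1 was at 0.058, ITGA2 at 0.0043, ITGA6 at 0.092 (also with the FPKM filter), ITGB2 at 0.00064, ITGB8 at 0.0058 and LAMA4 at -0.20. With 0.1 added they were at 0.11, 0.012, 0.14, 0.013, 0.029 and -0.83 in that order. With the GC and length trend removed ITGA1 was at 0.17, ITGA2 at 0.067, ITGA5 at -0.13, ITGA6 at 0.10 and ITGB8 at 0.0046. Without single libraries ITGA1 ranged from -0.16 to 0.069, ITGA6 from -0.18 to 0.034, ITGA10 from -0.26 to 0.70, LAMA2 from -0.070 to 0.57 and LAMA4 from -0.19 to 0.23. The measures used for shares, FPKM and CPM per kilobase, were compared after seeing the data. Depth limits the genes with few reads, LAMA3, ITGA9 and ITGB7 among those called.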

Other observations

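The deposited counts and FPKM of a few chains differed in scale, in the sign of a small difference or in library order. ITGAE and ITGA2B each moved the same way by both measures and differed in scale. ITGAE had 226 and 203 reads in CBL0137 libraries and 290 and 286 reads in DMSO libraries. Its FPKM was 8.94 and 7.72 in CBL0137 libraries and 13.3 and 12.8 in DMSO libraries. ITGA2B, with 264 and 263 reads in CBL0137 libraries and 110 and 127 reads in DMSO libraries, had an FPKM of 1.79 and 1.46 in CBL0137 libraries and of 0.755 and 0.871 in DMSO libraries. The FPKM of ITGAE was between 5.51 and 5.74 times its CPM per kilobase of annotated exon in the 4 libraries, whereas that of ITGA2B was between 0.70 and 0.85 times.

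LAMA4 had 32 and 43 reads in CBL0137 libraries and 31 and 31 reads in DMSO libraries, while its FPKM was 0.151 and 0.0708 in CBL0137 libraries and 0.347 and 0.204 in DMSO libraries. Neither measure gave a call for LAMA4 (edgeR log2 fold change 0.04, SE 0.34, adjusted p = 0.926, and limma on log2(FPKM + 1) -0.20, adjusted p = 0.253). ITGB7 stood at 33 and 20 reads in CBL0137 libraries and 8 and 13 reads in DMSO libraries, with an FPKM of 0.542 and 0.827 in CBL0137 libraries and of 0.0873 and 0.190 in DMSO libraries, so that replicate 1 was the higher CBL0137 library by reads and the lower by FPKM. ITGAL, untested, had 9 reads in each CBL0137 library and 2 reads in each DMSO library.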
